A study of Mus musculus with 72 samples.

Results

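The troponins and their partners on the cardiac thin filament were read from the heart libraries of the Gnb5 mouse series. Count rows were taken for a list of 10 genes, of 53715 gene identifiers counted in each library, by matching Ensembl identifiers to mouse symbols. The list holds the troponin subunits Tnnt2, Tnni3, Tnni1 and Tnnc1, the tropomyosin Tpm1, the cardiac actin Actc1, the actin filament regulators Lmod2 and Tmod1, and the sarcomere proteins Actn2 and Lrrc10. Each symbol matched 1 identifier. The study compared mice of 3 genotypes at the Gnb5 locus, which encodes the beta subunit Gβ5 of regulators of G protein signalling: wild type (Gnb5+/+, WT), heterozygous (Gnb5+/-, HET) and knock-out (Gnb5-/-, KO), with 6 mice in each. All were males of 18 weeks on a C57BL/6J background with free access to food and water, and the mutant allele is a germline deletion of exon 3 in every cell type. The line was recovered from frozen sperm. Total RNA was sequenced from both atria together (At) and from both ventricles together (Vt) of the same 18 mice, which gave 36 heart libraries in 6 groups of 6. Each library is bulk tissue, with muscle, conduction, vessel and connective tissue cells in it.

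The thin filament is a twin strand of actin along which tropomyosin lies, with a troponin complex at regular steps. Calcium binding to troponin C moves troponin I off actin, troponin T passes the movement to tropomyosin, and myosin heads can then bind. Leiomodin and tropomodulin sit at the pointed ends of the filaments, where leiomodin favours elongation and tropomodulin caps, while alpha-actinin crosslinks the barbed ends at the Z-disc. The slow skeletal isoform of troponin I, Tnni1, is the form of the embryonic heart and gives way to the cardiac form Tnni3 around birth.

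The heart libraries held 29355469 to 46118252 reads on genes, with a median of 35038930. Gnb5 itself was at 21.7 to 27.4 CPM (reads scaled to a common library size with TMM factors, from the trimmed mean of M values) in WT atria, 11.5 to 15.8 in HET atria and 1.23 to 2.16 in KO atria, and its 3 genotype ranges were separate in the ventricles too, so no library went against its label. The labelled chambers could be told by marker lists. The summed level of 7 atrial markers, led by Nppa and Myl4, was 19638 to 33660 CPM in atria and 122 to 394 CPM in ventricles. The summed level of 7 ventricular markers, led by Myl2, was 9960 to 16543 CPM in ventricles. In atria that sum was lower but uneven, at 59.7 to 993 CPM in WT, 36.3 to 513 CPM in HET and 90.3 to 331 CPM in KO. A few ventricular libraries stood apart. The HET library of mouse 4 had 2.85% of its counted reads outside genes, where the other 5 HET ventricle libraries had 4.61% to 4.81%. The WT library of mouse 8 and the KO library of mouse 14 had 5.52% and 5.71%, against 4.41% to 4.85% in the other WT and KO ventricles. KO and WT ventricles were also compared without mouse 8 or mouse 14, and HET and WT ventricles without mouse 4. Between chambers, HET mice were refitted without mouse 4, while WT and KO mice were not refitted without mouse 8 or 14. The test of the KO effect between chambers was not refitted without these mice either.

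On GRCm38 the genes lie on 9 chromosomes, and the neighbours Tnni1 (chr1:135779434-135810989) and Tnnt2 (chr1:135836354-135852260) share 1, both on the plus strand. Lmod2 (ENSMUSG00000029683) spans chr6:24597762-24605414 on the plus strand with 3 annotated exons, and Lrrc10 (ENSMUSG00000060187) is a gene of 1 exon at chr10:117045341-117046768 on the plus strand. Tpm1 (ENSMUSG00000032366) spans chr9:67022590-67049406 on the minus strand. Promoter sequences from RefSeq on GRCm38.p6 were found for all 10 genes, as windows of 300 bases that run from 250 before to 50 after an annotated start. Those of 4 genes are shown because the results turn on these genes: Lmod2 for its level in KO atria, Lrrc10 for its level in KO ventricles, and Tnnc1 and Actc1 for their rise in ventricles. Capitals mark matches, on either strand, to the letters TATAAA, to the MCAT motif GGAATG, to GATAA and to the CArG box. The windows are chr6:24597521-24597820 on the plus strand for Lmod2, chr10:117045091-117045390 on the plus strand for Lrrc10, chr14:31208062-31208361 on the plus strand for Tnnc1 and chr2:114052826-114053125 on the minus strand for Actc1.
Lmod2: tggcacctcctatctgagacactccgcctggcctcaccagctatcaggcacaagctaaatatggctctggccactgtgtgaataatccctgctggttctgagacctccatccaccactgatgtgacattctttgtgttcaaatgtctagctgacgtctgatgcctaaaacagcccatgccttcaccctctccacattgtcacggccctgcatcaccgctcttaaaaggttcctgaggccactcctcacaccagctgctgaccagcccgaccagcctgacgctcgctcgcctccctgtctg
Lrrc10: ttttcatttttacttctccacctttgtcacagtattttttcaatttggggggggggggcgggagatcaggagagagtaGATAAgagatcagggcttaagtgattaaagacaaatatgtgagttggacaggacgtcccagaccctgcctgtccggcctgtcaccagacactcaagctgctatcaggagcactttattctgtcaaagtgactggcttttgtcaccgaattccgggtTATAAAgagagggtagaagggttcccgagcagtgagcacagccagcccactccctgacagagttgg
Tnnc1: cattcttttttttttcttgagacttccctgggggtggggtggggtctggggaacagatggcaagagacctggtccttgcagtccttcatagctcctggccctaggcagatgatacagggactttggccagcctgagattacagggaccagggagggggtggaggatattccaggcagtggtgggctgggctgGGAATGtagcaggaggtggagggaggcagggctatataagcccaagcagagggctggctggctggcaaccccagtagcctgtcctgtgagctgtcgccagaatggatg
Actc1: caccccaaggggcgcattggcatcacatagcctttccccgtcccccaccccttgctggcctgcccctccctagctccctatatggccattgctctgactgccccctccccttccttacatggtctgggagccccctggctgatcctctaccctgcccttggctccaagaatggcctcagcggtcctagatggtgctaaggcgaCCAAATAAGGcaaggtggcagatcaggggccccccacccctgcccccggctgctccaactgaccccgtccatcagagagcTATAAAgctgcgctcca

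The Lmod2 window held none of these letters, the Lrrc10 window held TATAAA 16 bases before its start and a GATAA, and the Tnnc1 window held a GGAATG 58 bases before its start. In the Actc1 window a CArG box lay 47 bases before the annotated start and TATAAA 34 bases into the transcript. Over the 10 genes, GGAATG was in 4 windows (Tnnt2, Tnnc1, Tpm1 and Tmod1), GATAA in 3 (Tnnt2, Tnni3 and Lrrc10), TATAAA in 2 and the CArG box in 1. Of all 32851 promoter windows in the table, 14.7% held GGAATG, 25.4% GATAA, 13.6% TATAAA and 1.63% the CArG box. These are matches of letters and not sites. The windows of Tnni3 and Tnni1 lie 1701 and 19987 bases from the outer start of the gene model used for counting. Those of Actc1, Tmod1 and Tpm1 lie 673, 287 and 193 bases from it.

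**Figure D1:**
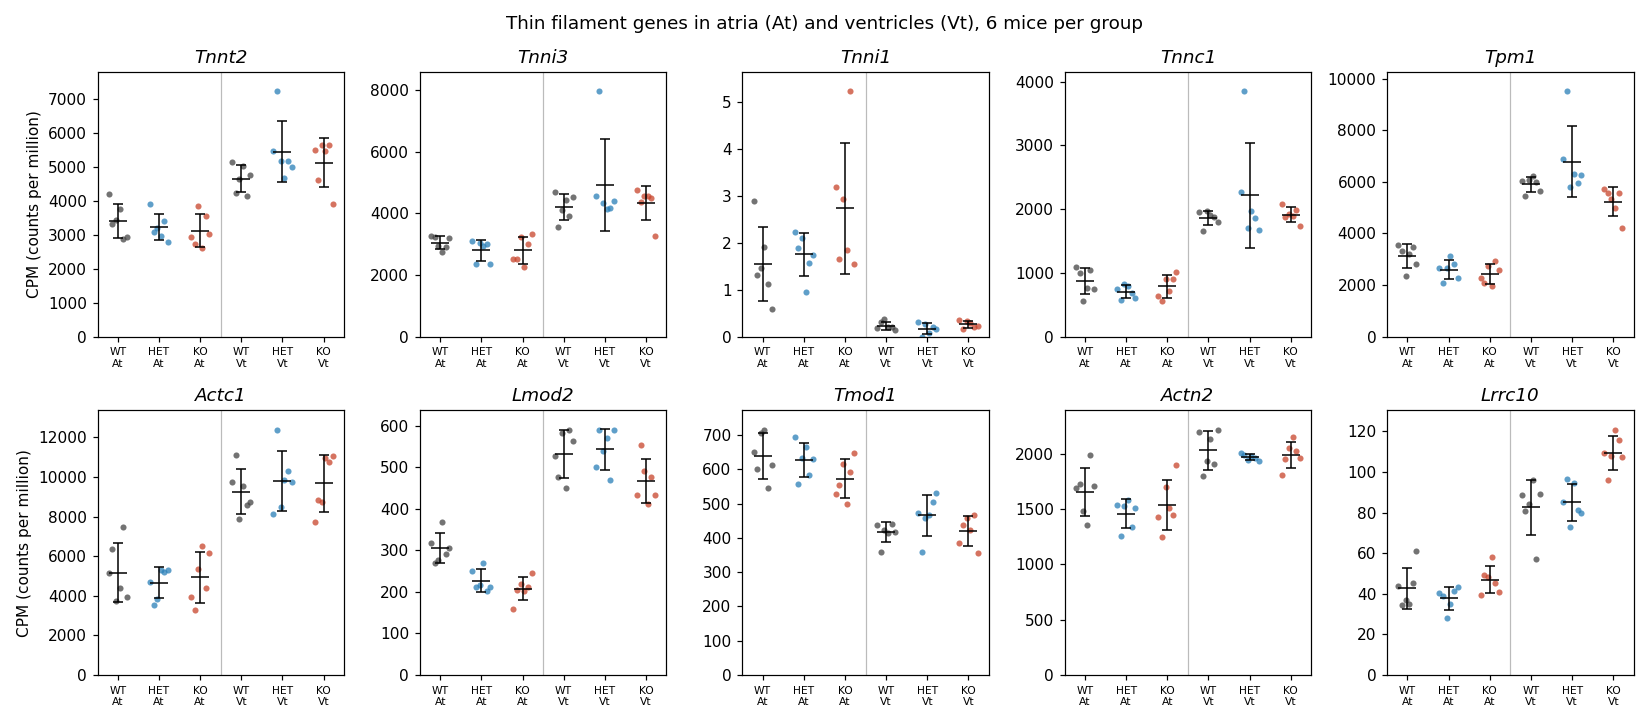
Level of each gene in CPM (linear axis from 0) in every heart library, by genotype and chamber; points are mice, and bars are the mean with its SD over 6 mice. Most genes sit higher in the ventricles, Tnni1 and Tmod1 sit higher in the atria, Lmod2 is lower in HET and KO than in WT atria, and 1 HET ventricle library is far above the others for Tnnt2, Tnni3, Tnnc1 and Tpm1.

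The 10 genes took 1.72% to 2.45% of the reads on genes in atria and 2.11% to 3.64% in ventricles, the last in the library of HET mouse 4. Levels of different genes were compared per kilobase of exon, since long genes collect more reads. In WT atria Actc1 was highest, at 3198 ± 909 CPM per kilobase (SD, n = 6), followed by Tnni3 at 1482 ± 103 and Tnnc1 at 836 ± 198. Tpm1, Tnnt2 and Actn2 came next, at 482 ± 70.2, 442 ± 65.1 and 436 ± 57.5 CPM per kilobase, and the ranges of these neighbours overlapped, as did those of Tnnc1 and Tpm1. Tmod1 and Lmod2 were also level with each other, at 162 ± 16.7 and 154 ± 18.4. Lrrc10 followed at 30.0 ± 7.05, and Tnni1 was last at 0.433 ± 0.218. In WT ventricles the order was the same but for one exchange. There Lmod2, at 269 ± 29 CPM per kilobase, lay above Tmod1, at 105 ± 7.45, with separate ranges, while Tnni3 and Tnnc1, and Tnnt2 and Actn2, overlapped. The exon length used is the union of all annotated exons, 7752 bases for Tnnt2 and 6485 for Tpm1, so the level per kilobase is low for genes with many rarely used exons, and the counts do not separate splice isoforms.

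The first comparison set the ventricles of each mouse against its own atria. After TMM scaling, all 10 genes differed between the chambers in each genotype, 8 higher and 2 lower in ventricles. The test was edgeR's quasi-likelihood test with the mouse as a block and Benjamini-Hochberg adjustment. For some genes the direction or size rests on the scaling. By total reads on genes without TMM factors, Actn2 had medians of 1857 CPM over all atria and 1639 CPM over all ventricles. On that scale Tnni3 was at 3510 and 3545 CPM, and Tnnt2 at 3853 and 4103 CPM. Of all 16507 genes tested, 54.2% differed in WT (27.1% higher and 27.2% lower in ventricles), 59.2% in HET (29% and 30.2%) and 58.1% in KO (28.7% and 29.4%), so a difference between chambers was common. The median log2 fold change of the 10 genes was 0.63 in WT, 0.93 in HET and 0.86 in KO, against medians near 0 over all genes (-0.0027, -0.025 and -0.015). TMM scaling takes most genes as level between the chambers, so medians near 0 over all genes follow from it.

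Within the troponin complex, the subunits changed by unequal amounts. Tnnc1, the calcium-binding subunit, was at 566, 883 and 1098 CPM (lowest, median and highest of 6) in WT atria and at 1662, 1898 and 1966 CPM in WT ventricles. The groups did not overlap, and the log2 fold change was 1.13 (SE 0.17, edgeR adjusted p = 5.12e-06). Tnnt2, which anchors the complex to tropomyosin, ran from 2886 to 4210 CPM in WT atria and from 4156 to 5143 CPM in WT ventricles. Its groups touched, although ventricles were higher in 6 of 6 mice (log2 fold change 0.45, SE 0.10, edgeR adjusted p = 0.000587). Tnni3, the inhibitory subunit, rose by a like amount, with a log2 fold change of 0.46 (SE 0.14, edgeR adjusted p = 0.00886), from 2760 to 3273 CPM in WT atria to 3549 to 4699 CPM in WT ventricles. In KO mice it was higher in ventricles in 5 of 6 mice. Tnni1 ran the other way. It was counted 24 to 111 times per library in WT atria, or 0.601 to 2.90 CPM, and 4 to 11 times in WT ventricles, or 0.146 to 0.373 CPM. The log2 fold change was -2.60 in WT (SE 0.31, edgeR adjusted p = 1.64e-07), -3.33 in HET and -3.26 in KO. The HET ventricle library of mouse 4 had 0 counts of Tnni1, which allows up to 3 counts. As a sum, 9 skeletal muscle markers were also higher in atria, at 8.22 to 31.7 CPM against 1.43 to 4.40 CPM in ventricles. The atrial library highest for Tnni1 (KO mouse 12, 5.23 CPM) had a skeletal sum of 9.73 CPM, and the library highest for the skeletal sum (KO mouse 1, 31.7 CPM) had Tnni1 at 3.19 CPM. The skeletal myosins Myh1, Myh2 and Myh4 had means of 0.0305, 0.0408 and 0.0148 CPM in WT atria and of 0.806, 0.876 and 1.03 CPM in KO atria. The KO means came from mouse 1, at 4.72, 4.92 and 6.19 CPM, while the other 5 KO libraries were at 0 to 0.138 CPM. The muscle precursor gene Myod1 was at 0 in all atria, and the sum in WT atria was led by Tnni2, Actn3 and Tnnt3. Some markers ran against the sum in WT mice. Mylpf had means of 0.518 CPM in atria and 0.645 CPM in ventricles, Tnnc2 of 0.00779 and 0.124, and Myod1 of 0 and 0.0516.

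Tropomyosin and cardiac actin were also higher in ventricles. Tpm1 was at 2370, 3263 and 3566 CPM in WT atria and at 5434, 6027 and 6218 CPM in WT ventricles, with no overlap (log2 fold change 0.93, SE 0.13, edgeR adjusted p = 2.22e-06). Actc1 was the most variable of the abundant genes in WT atria, at 3746, 4763 and 7481 CPM, and stood at 7890, 9132 and 11087 CPM in WT ventricles (log2 fold change 0.88, SE 0.14, edgeR adjusted p = 7.97e-06). For Actc1, too, every WT ventricle library lay above every WT atrial library.

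The 2 pointed-end proteins moved in opposite directions. Lmod2 was at 269, 299 and 369 CPM in WT atria and at 451, 545 and 589 CPM in WT ventricles. Tmod1, its capping counterpart, was at 544, 632 and 715 CPM in WT atria and at 360, 420 and 441 CPM in WT ventricles. Neither gene's groups overlapped. The log2 fold changes were 0.80 for Lmod2 (SE 0.10, edgeR adjusted p = 3.39e-07) and -0.62 for Tmod1 (SE 0.09, edgeR adjusted p = 2.30e-06). As a ratio per kilobase, Lmod2 stood at 78.0 to 107 per 100 Tmod1 in WT atria and at 217 to 275 per 100 Tmod1 in WT ventricles.

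Actn2, the sarcomeric alpha-actinin, had the smallest chamber difference of the list in WT mice. Its level ran from 1355 to 1984 CPM in WT atria and from 1793 to 2215 CPM in WT ventricles (log2 fold change 0.30, SE 0.09, edgeR adjusted p = 0.0101). With TMM factors it was higher in ventricles in 5 of 6 WT mice, whereas by total reads its median over all mice was lower in ventricles. Lrrc10, a leucine-rich repeat protein of the cardiac Z-disc that binds alpha-actinin and actin, ran from 34.7 to 61.3 CPM in WT atria and from 57.0 to 96.0 CPM in WT ventricles. Its groups overlapped by 1 library on each side, and it was higher in ventricles in 6 of 6 mice (log2 fold change 0.96, SE 0.12, edgeR adjusted p = 2.20e-07).

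Groups of ventricles and atria did not overlap for 7 of the 10 genes in WT, 10 in HET and 8 in KO mice, against 28.5%, 34.1% and 37.7% of all genes tested. The size of the chamber difference was smallest in WT mice for 9 of the 10 genes, Tmod1 being the exception. The same count over all genes was not made, and no gene of the list passed the threshold when KO and WT chamber differences were compared, as given below. Lmod2, for example, had a log2 fold change of 0.80 in WT, 1.26 in HET and 1.18 in KO, and Tpm1 of 0.93, 1.37 and 1.11. WT atria also had the highest median sum of ventricular markers, 294 CPM against 106 in HET and 160 in KO. Without WT mouse 16, whose atrial library had the highest such sum, the log2 fold change of Lmod2 in WT was 0.91 and that of Actn2 was 0.23, no longer past the threshold (edgeR adjusted p = 0.0521). Without mouse 4, all 10 genes still differed in HET mice, with Tnni3 at 0.59 in place of 0.78 and Tnnc1 at 1.37 in place of 1.59 on the log2 scale.

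**Figure D2:**
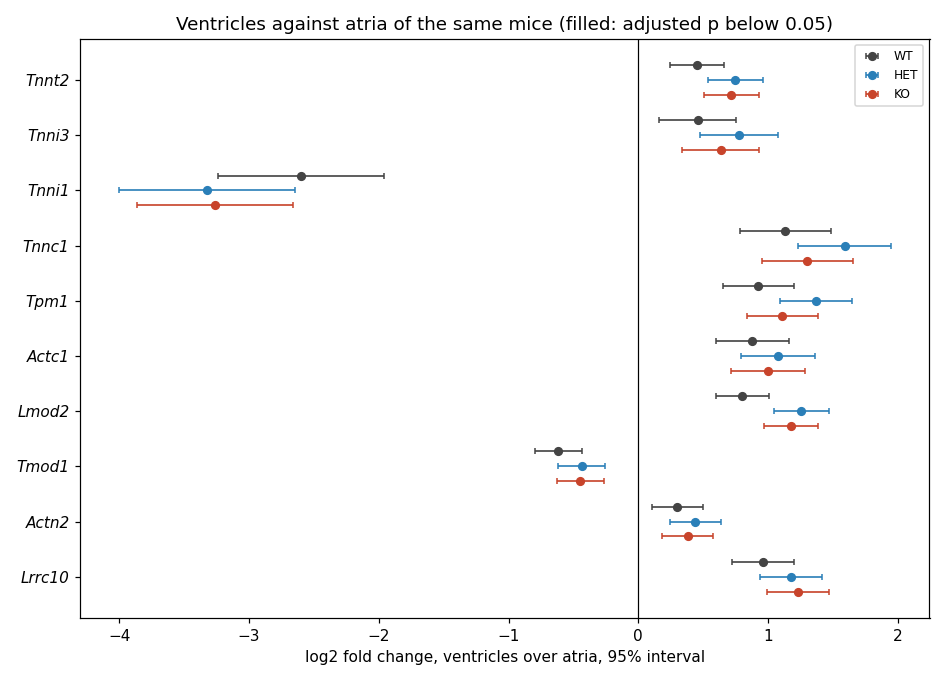
Log2 fold change of ventricles over atria for the 10 genes in WT, HET and KO mice, with 95% intervals from edgeR; filled points have an adjusted p below the threshold. All points are filled, 8 genes lie above 0 and Tnni1 and Tmod1 lie below, and the WT points lie nearest to 0 for 9 genes.

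The second comparison asked what the loss of Gnb5 did in the atria. Of the 10 genes, 1 was called between KO and WT atria, Lmod2, which was lower in KO, where 0.253% of all 16181 genes tested were called by the same rule and 0.117% were lower. The study had already reported Lmod2 among the genes with lower expression in KO atria. Lmod2 was at 269, 276, 290, 307, 317 and 369 CPM in WT atria. In KO atria it was at 160, 203, 204, 211, 220 and 245 CPM. Every KO library lay below every WT library, a pattern in that direction found in 0.328% of the genes tested. The means were 207 ± 27.7 CPM in KO and 305 ± 36.3 CPM in WT (SD, n = 6), a log2 fold change of -0.55 (SE 0.10, 95% interval -0.76 to -0.34), or 0.682-fold, with an edgeR adjusted p of 0.0157. The exact permutation test, two-sided over 924 splits of the 12 mice, gave p = 0.00216, the smallest it can give. Lmod2 lost its call with a covariate for 8 cardiomyocyte markers (log2 fold change -0.42, edgeR adjusted p = 0.221) and when the HET libraries were left out of the fit (-0.55, edgeR adjusted p = 0.0538), and kept it in each of 12 fits without 1 library.

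The cardiomyocyte markers were also lower in value in KO atria. Their summed level was 43819 to 48490 CPM in WT atria, 36700 to 46146 in HET and 37841 to 46497 in KO. In KO atria 8 of 8 of them had a fold change below 0, none called (median log2 fold change -0.16). By library the link to Lmod2 was uneven. WT mouse 16 had the lowest WT sum and the highest Lmod2, 369 CPM. KO mouse 1 had the lowest KO sum and the lowest Lmod2, 160 CPM. The summed ventricular markers were also lower in KO atria (difference of the mean log2 sums -0.62), with overlapping groups. In a fit that held their level as a term Lmod2 stood at -0.53 on the log2 scale (edgeR adjusted p = 0.0203). Pacemaker markers were at 9.10 to 52.1 CPM in KO and 12.8 to 36.2 CPM in WT atria, and fat cell markers at 3.66 to 82.2 CPM in KO and 2.10 to 17.7 CPM in WT atria. The 7 atrial muscle markers were slightly higher in value in KO atria (difference of the mean log2 sums 0.087). Of these, 3 had a fold change below 0 and none was called. Fibroblast markers were nearly level (-0.012). The part of the pacemaker, fat cell, atrial and fibroblast markers in the level of Lmod2 was not tested. In bulk tissue, fewer muscle cells and less Lmod2 RNA per muscle cell cannot be told apart.

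The other 9 genes did not pass the threshold in KO atria, and 7 of them had values below WT. The median log2 fold change of the 10 was -0.12, against 0.00014 over all genes tested, which the scaling holds near 0. Tpm1 came closest among the abundant genes. It was at 1982, 2440 and 2951 CPM (lowest, median and highest) in KO atria against 2370, 3263 and 3566 CPM in WT atria, with overlapping groups and a log2 fold change of -0.35 (SE 0.12, 95% interval -0.61 to -0.10, edgeR adjusted p = 0.385). Tpm1 lies on chromosome 9, the chromosome of Gnb5, 8.257 megabases from it. Tnni1 was at 1.55 to 5.23 CPM in KO and 0.601 to 2.90 CPM in WT atria, and its log2 fold change was 0.82 (SE 0.33, 95% interval 0.12 to 1.52, edgeR adjusted p = 0.493). Without KO mouse 12, its highest library, the value was 0.53. The intervals of the other troponin genes included 0, at -0.36 to 0.11 for Tnnt2, -0.33 to 0.091 for Tnni3 and -0.46 to 0.20 for Tnnc1 on the log2 scale. So did those of Actn2 (-0.31 to 0.10) and Actc1 (-0.44 to 0.31). Tmod1 had a log2 fold change of -0.15 and an interval of -0.33 to 0.020. The ratio of Lmod2 to Tmod1 per kilobase was 60.5 to 81.5 per 100 in KO atria and 78.0 to 107 in WT atria.

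**Figure D3:**
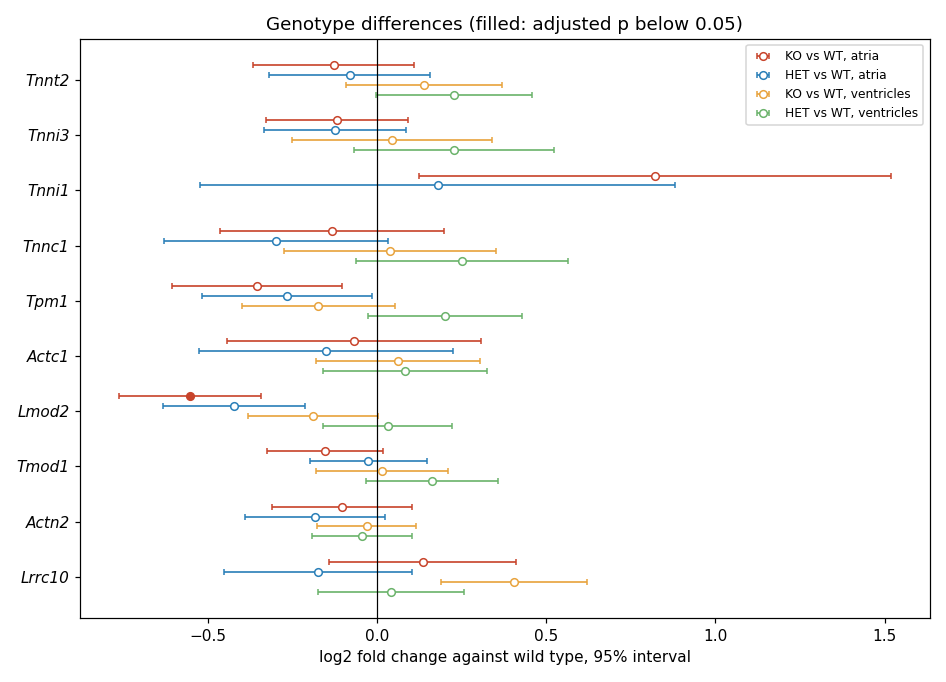
Log2 fold change of KO and HET against WT mice in atria and ventricles, with 95% intervals from edgeR; filled points have an adjusted p below the threshold. The filled point is Lmod2 in KO atria at -0.55, and the interval of Lrrc10 in KO ventricles lies above 0; Tnni1 was too low in ventricles to be tested.

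In HET atria none of the 10 genes was called, as against 0.0124% of all genes, or 2 genes. DESeq2 also called none, and 2 of the 10 had an unadjusted p under 0.05, against 7.22% of all genes. Lmod2 was at 201, 212, 212, 218, 251 and 270 CPM, so that its highest HET library lay just above the lowest WT library. The log2 fold change from WT was -0.42 (SE 0.10, 95% interval -0.63 to -0.21, edgeR adjusted p = 0.610), and the exact two-sided permutation test gave p = 0.00433. The HET and KO groups are compared here with the same WT libraries, so their agreement in sign is not independent. Tpm1 had a log2 fold change of -0.26 (95% interval -0.52 to -0.013, edgeR adjusted p = 0.667), and Tnnc1 of -0.30 (95% interval -0.63 to 0.033, edgeR adjusted p = 0.731). Values were below WT for 9 of the 10 genes, and 7 of 8 cardiomyocyte markers were below WT as well.

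**Figure D4:**
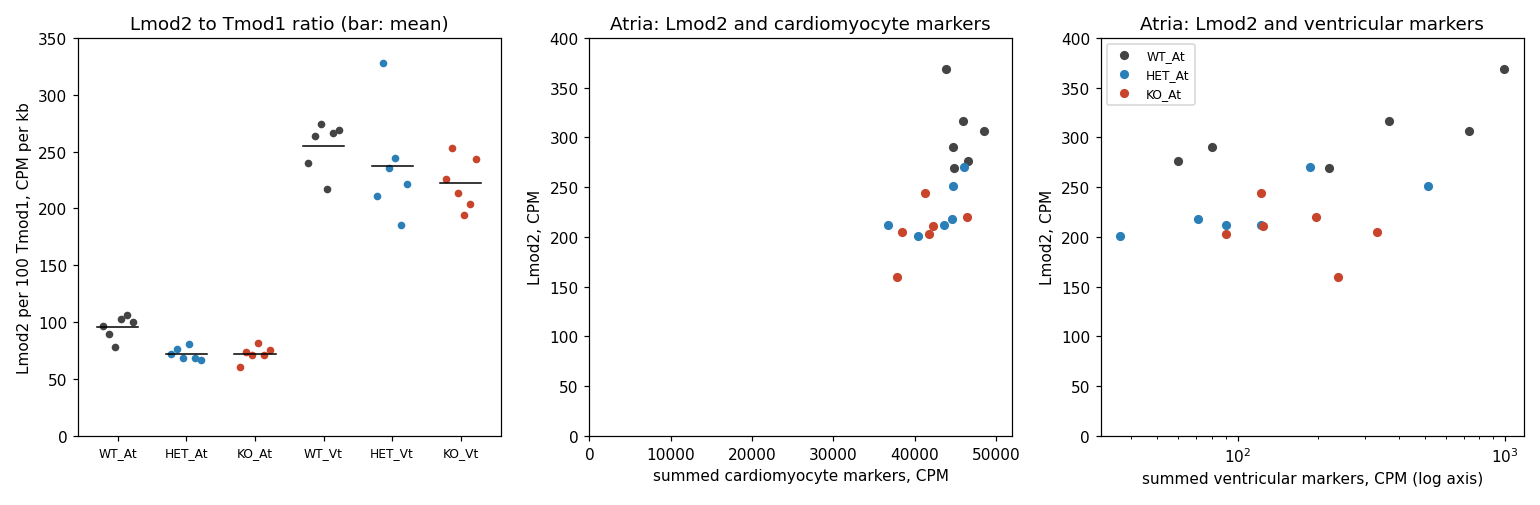
Left, Lmod2 per 100 Tmod1 (CPM per kilobase) in each heart library with group means; middle and right, Lmod2 in CPM in the 18 atrial libraries against the summed CPM of cardiomyocyte markers (linear axis) and of ventricular markers (log axis). All WT atria lie above all KO atria in Lmod2, and the WT library with the highest ventricular sum, 993 CPM, has the highest Lmod2, 369 CPM. The WT library with the lowest ventricular sum, 59.7 CPM, has Lmod2 at 276 CPM. The KO library with the highest ventricular sum, 331 CPM, has Lmod2 at 204 CPM.

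In the ventricles 9 of the 10 genes could be tested, as Tnni1 fell below the filter on low counts, and none was called between KO and WT, where 0.188% of all 14866 genes were. DESeq2 as run here called none either, whereas the study reported Lrrc10 and Tnnt2 as significantly higher in KO ventricles. By unadjusted p under 0.05 there was 1, Lrrc10, against 4.78% of all genes. Lrrc10 was at 57.0, 80.9, 84.2, 88.8, 89.4 and 96.0 CPM in WT ventricles. In KO ventricles it was at 96.1, 107, 108, 109, 116 and 121 CPM. The lowest KO library lay just above the highest WT library, and 0.303% of genes had every KO library above every WT library. The log2 fold change was 0.40 (SE 0.10, 95% interval 0.19 to 0.62, edgeR adjusted p = 0.214), and the exact two-sided permutation test gave p = 0.00216. Over 8 other planned settings, by edgeR or DESeq2, the log2 fold change was 0.39 to 0.41 and the adjusted p 0.0567 to 0.285. Leaving out the WT library of mouse 8 and the KO library of mouse 14 together left the log2 fold change at 0.41 (edgeR adjusted p = 0.462). In HET ventricles Lrrc10 ran from 73.1 to 96.7 CPM. The highest HET library lay just above the highest WT library and the lowest KO library.

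None of the troponin genes that could be tested was called in KO ventricles. Tnnt2 was at 3908, 5489 and 5661 CPM in KO and 4157, 4712 and 5143 CPM in WT ventricles (log2 fold change 0.14, 95% interval -0.092 to 0.37, edgeR adjusted p = 1.00). Tnni3 and Tnnc1 lay close to WT, with log2 intervals of -0.25 to 0.34 and -0.27 to 0.35. Tpm1 was lower in value, at 4221 to 5709 CPM against 5434 to 6218 CPM, with an interval of -0.40 to 0.054. For Lmod2 the levels were 411, 456 and 554 CPM in KO and 451, 545 and 589 CPM in WT ventricles (log2 fold change -0.19, 95% interval -0.38 to 0.0039, edgeR adjusted p = 1.00). Actc1, Tmod1 and Actn2 had log2 fold changes of 0.062, 0.016 and -0.030. Without the KO library of mouse 14, the log2 fold change of Tnnt2 was 0.21 in place of 0.14, that of Tnni3 0.12 in place of 0.045, that of Tnnc1 0.070 in place of 0.039 and that of Tpm1 -0.11 in place of -0.17. The values of Actc1 and Tmod1 were then 0.024 and 0.064. Without the WT library of mouse 8, Actc1 stood at 0.13, Tnni3 at 0.0045 and Tnnc1 at 0.013. Over 13 fits that left out libraries, Lmod2 ran from -0.24 to -0.15 and Actn2 from -0.058 to 0.0017. None of these was called.

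Among HET ventricles none of the 9 genes was called, against 0.0202% of all genes, none had an unadjusted p under 0.05, and DESeq2 called none. For 4 genes, 1 library raised the values. In HET mouse 4, Tnni3 was at 7958 CPM against 4144 to 4568 in the other 5, Tnnc1 at 3845 against 1672 to 2265, Tpm1 at 9499 against 5810 to 6893, and Tnnt2 at 7234 against 4679 to 5469. Tmod1 was lowest in that library, at 360 CPM. Its ventricular marker sum was the highest of the heart, 16543 CPM. With it, the log2 fold changes from WT were 0.25 for Tnnc1, 0.23 for Tnni3, 0.23 for Tnnt2 and 0.20 for Tpm1. Without it, they were 0.024, 0.040, 0.13 and 0.082. Tmod1 went the other way, from 0.16 to 0.23, and Actn2 was at -0.044 with it and -0.047 without it. Actc1, Lmod2 and Lrrc10 went from 0.084, 0.032 and 0.042 to 0.0068, 0.0070 and 0.0025.

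The effect of KO in ventricles less that in atria was tested for each gene in 1 fit of the 36 libraries with the mouse as a block. No gene of the list, and none of 16507 genes, passed edgeR's adjusted threshold (0%). By unadjusted p there were 1 of the 10 and 640 of all genes under 0.05, and DESeq2 called 15 genes, none from the list. The 1 was Lmod2, whose KO effect was 0.37 higher in ventricles on the log2 scale (SE 0.14, 95% interval 0.081 to 0.66, edgeR unadjusted p = 0.0146, adjusted p = 1.00). Thus the call of Lmod2 in atria and its absence in ventricles was not shown to be a difference between chambers. For Lrrc10 the difference was 0.27 (95% interval -0.063 to 0.61).

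Paralogues of the 10 genes were read next, such as the skeletal troponins, the other tropomyosins and the smooth muscle actins. Of 20 such genes, 19 were tested in atria and 18 in ventricles, and none was called in any genotype comparison. Between chambers, 5 were higher and 7 lower in ventricles in WT mice, 6 and 7 in HET, and 7 and 7 in KO. The 12 of 19 called in WT mice compare with 54.2% of all genes, and the higher counts in HET and KO mice with 59.2% and 58.1%. Acta1, the skeletal actin whose coding sequence is close to that of Actc1, had a mean of 14.4 CPM in WT atria and 511 CPM in WT ventricles, and log2 fold changes of 5.40 in WT, 7.61 in HET and 6.92 in KO. It remained a small part of Actc1, at 0.0320 to 0.497 per 100 Actc1 per kilobase in WT atria and 2.66 to 15.9 in WT ventricles. Lmod3, the leiomodin of skeletal muscle, was also higher in ventricles (35.3 CPM in WT atria, 110 CPM in WT ventricles), as were Tmod4 and Acta2. Tpm2 ran opposite to Tpm1, from 161 CPM in WT atria to 15.6 CPM in WT ventricles (log2 fold change -3.38). Per 100 Tpm1 per kilobase it stood at 9.68 to 14.4 in WT atria and 0.408 to 0.690 in WT ventricles, with separate ranges. Actn4 and Tpm3, forms found in many non-muscle cells, were lower in ventricles, with log2 fold changes of -0.28 and -0.19 in WT. The cardiac form of troponin I held its place in both chambers. Tnni1 was at 0.0107 to 0.0507 per 100 Tnni3 per kilobase in WT atria and 0.0268 to 0.0998 in KO atria. In ventricles it was at 0.00184 to 0.00520 in WT and 0.00211 to 0.00422 in KO.

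A second list held 34 other proteins of the thin filament and the Z-disc. None of the 33 tested was called in any genotype comparison, with a median log2 fold change of -0.12 in KO atria and -0.18 in HET atria, where the 10 genes had -0.12 and -0.16 and the paralogues -0.11 and -0.13. In WT mice 21 of the 34 were higher and 5 lower in ventricles, with a median log2 fold change of 0.35, where 27.1% of all genes were higher and 27.2% lower. Myot, the Z-disc protein myotilin, rose most among those called in all genotypes, from 5.15 CPM in WT atria to 100 CPM in WT ventricles (log2 fold change 4.25). Xirp2 and Nrap, scaffold proteins of the intercalated disc and of forming myofibrils, were at 1404 and 1068 CPM in WT ventricles, with log2 fold changes of 1.21 and 1.15. Lower in ventricles were Pdlim3, a PDZ and LIM protein bound to alpha-actinin (log2 fold change -2.12), Neb, the giant thin filament protein nebulin (-1.46), Synpo2l (-0.99) and Ankrd1 (-0.91), the stretch-responsive repeat protein.

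The genes whose log2 CPM followed Lmod2 most closely over the 18 atrial libraries were Oxnad1 (Pearson's r = 0.86), Klhl31 (0.86) and Agtpbp1 (0.86), where the median gene had an r of -0.014. For Lrrc10 over the 18 ventricular libraries they were Ttll12 (0.85), Wdr18 (0.85) and Nprl2 (0.85), against a median of -0.0055. These are descriptions over libraries that share genotype groups, and they were picked as the highest of all genes tested.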

How the data were processed

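RNA was sequenced from atria and ventricles of 18 mice (36 of 72 libraries). The authors trimmed reads with cutadapt 1.8, aligned them to GRCm38 with STAR 2.5.3a and counted them with HTSeq 0.9.1, and deposited whole-number counts per gene without normalization. The kit keeps strand, but the strand setting of the counting is not given in the sources used here. Tnni3 overlaps Dnaaf3, and Tnnc1, Actc1 and Tmod1 overlap genes on the other strand. Reads shared with near-identical actin or tropomyosin genes may be split or left out.

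Symbols and positions came from GENCODE vM21. Counts were filtered with filterByExpr (minimum count 10), scaled by TMM and tested with edgeR 4.0.16 in R 4.3.3 (glmQLFit and glmQLFTest, adjusted p below 0.05 over all genes), by genotype within a chamber (18 libraries) or, between chambers, with the mouse as a block (36 libraries). Standard errors are the fold change over the root of F. Printed CPM are scaled over the 36 libraries, and log2 CPM for permutations have a prior count of 2. Atria and ventricles of 1 mouse, paired by the mouse numbers of the labels, deviated together (r 0.107 to 0.411, above 0.1 in 6 of 6 mice of each genotype). Alternatives were DESeq2 1.42.0, RLE factors, other filters and blocks, marker covariates, 2 genotypes alone and fits without a library. Fits without HET mouse 4, without WT mouse 16, and without WT mouse 8 and KO mouse 14 together were chosen after seeing the data. The scripts were tested on simulated data.

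The genes and lists were chosen with earlier results of these data known. All 10 genes are named, and of the other lists up to 4 genes per direction with the largest chamber difference among those called in all 3 genotypes at a mean of at least 10 CPM. Markers of cardiomyocytes, of atrial, ventricular, skeletal and smooth muscle, and of fibroblasts, endothelium, fat cells, macrophages, neurons and pacemaker cells had no gene called between genotypes.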

Additional observations from a re-analysis of the deposited data

Results flagged for a closer look

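For each gene and heart group, the highest or lowest of 6 mice was compared with its neighbours by Dixon's ratio at the 95% level, and 6 of the 60 groups were past it, where chance gives about 1 in 20. In the HET ventricles, 4 of them came from mouse 4: Tnnt2 at 7234 CPM (the other 5 at 4679 to 5469), Tnni3 at 7958 CPM (4144 to 4568), Tnnc1 at 3845 CPM (1672 to 2265) and Tpm1 at 9499 CPM (5810 to 6893). That library had the lowest share of reads outside genes in the heart, 2.85%. Tnni3 in the KO ventricles of mouse 14 was low, at 3265 CPM where the other 5 were at 4381 to 4765, and Tmod1 in the WT ventricles of mouse 8 was low, at 360 CPM where the other 5 were at 415 to 441. These libraries had the highest shares of reads outside genes in the ventricles, 5.71% and 5.52%, and each held the highest Actc1 of its group, 11063 and 11087 CPM. The part of these shares in the levels was not tested.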

How the results depend on the processing

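Of the genes called between KO and WT atria, the count of 1 from the list fell to 0 in 2 settings: with the 2 genotypes alone (Lmod2 -0.55, adjusted p = 0.0538) and with a cardiomyocyte marker covariate (Lmod2 -0.42, adjusted p = 0.221). Over the other planned settings Lmod2 stayed past the threshold with adjusted p from 0.000109 to 0.0263, and over 12 fits without 1 library from 0.00984 to 0.0486. The cardiomyocyte covariate also turned Tmod1 in HET atria to 0.044 from -0.025 on the log2 scale. Without 1 library each, values near 0 changed sign: Actc1 in KO atria ran from -0.15 to 0.069, Tmod1 in KO ventricles from -0.017 to 0.064 and Actn2 in KO ventricles from -0.058 to 0.0017. In the settings run, other values kept their direction and their side of the threshold, apart from Actn2 between WT chambers without WT mouse 16 (0.23). None of these settings scaled by total reads, where the median of Actn2 was lower in ventricles. Apart from the fits chosen after seeing the data, fits without a library were made only for KO against WT within a chamber. With the replicate number of the titles as a block, which joins different animals, the same 1 gene, Lmod2, was called in KO atria (adjusted p = 0.0263) and 0 in the other genotype comparisons, and 37 and 23 of all genes were called in KO atria and ventricles in place of 41 and 28. Deviations of same-numbered mice correlated above 0.1 in at most 1 of 6 numbers. Without the mouse block, all 10 genes still differed between the chambers. DESeq2 called 110 and 63 of all genes in KO atria and ventricles, and the cause was not tested. For the difference of the KO effect between chambers it called 15 of all genes, edgeR without a filter 97 and without the mouse block 2, where the main test called 0. At 0 to 11 counts per ventricular library, Tnni1 cannot show a genotype difference of moderate size, and a filter of 10 counts in every library removed it from the chamber comparison.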

Other observations

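The brain libraries of the series give a view of the list outside the heart. Over the 36 brain libraries, in CPM by total reads on genes without TMM factors, Tpm1 was at 126 to 327 CPM and Tmod1 at 31.8 to 108 CPM, the 2 genes of the list with levels of this order in every brain library. Actn2 had a median of 20.5 CPM over the brain libraries. Tnnt2, Tnni3, Tnnc1, Actc1, Lmod2 and Lrrc10 had brain medians of 0.968, 0.877, 1.89, 0.0217, 0 and 0.0460 CPM. Tnni1 had a median of 0.979 CPM in brain, which lay between its medians of 2.23 CPM in atria and 0.174 CPM in ventricles on the same scale. Single brain libraries reached 69.1 CPM of Actc1, 24.0 CPM of Tnnt2, 21.3 CPM of Tnni3 and 3.20 CPM of Lmod2, all in the WT hippocampus group, where the group medians were 0, 0.849, 0.597 and 0 CPM. High single libraries occurred in other brain groups too, with Tnnc1 at 60.8 CPM in a KO cortex library (group median 6.01) and Actc1 at 22.7 CPM in a WT cerebellum library (group median 0.0226).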
